A study of Caenorhabditis elegans with 2 samples.

Results

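Homeobox genes encode transcription factors that bind DNA through the homeodomain, and 78 of them, out of 19973 protein-coding genes on the nuclear chromosomes of Caenorhabditis elegans, are described here for binding of the tagged nuclear hormone receptor NHR-48. The 78 are the protein-coding genes named ceh followed by a number, with ceh-60 left out, and 16 named homeobox genes from lin-39 to cog-1 in the Ensembl annotation of WBcel235 (ce11). Chromatin from whole hermaphrodite L4 larvae, collected 48.5 h after starved L1 animals were released, was precipitated with an anti-GFP antibody and sequenced (ChIP-seq). Both samples, biological replicates 1 and 2, came from strain OP518, which carries the integrated transgene wgIs518 for NHR-48 with a C-terminal GFP-FLAG tag and the mutation unc-119(tm4063) on chromosome III. The labels do not name the promoter of the transgene, the strain is a single line, and no second condition was analysed here. In whole animals, a region bound in few cells and a region bound weakly in many cells cannot be told apart.

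Homeodomain proteins assign identity to body regions, muscles and neurons during development. The Hox genes pattern the body axis, while LIM, POU and paired-like genes are known mainly for fixing the identity of single neuron classes. Many homeodomains recognise short sequences with a TAAT core.

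The window of a gene was its body and the 5 kb upstream of its annotated 5′ end, and a region counted where its summit, the authors' position of highest signal, lay in that window. Counts were made in a pair of the authors' lists. The irreproducible discovery rate (IDR) list holds 3361 peaks, 3338 of them nuclear, after a threshold set by comparing ranks between replicates, and the pooled list holds the 30000 regions called on both replicates together, peaks and background alike. The 3338 nuclear IDR peaks were the same intervals and summits as the nuclear regions among the 3361 strongest of the pooled list, so the IDR list is the top of the pooled one, and single peaks in it need not rank high in both replicates. The signal value is the authors' score for a region on the scale of their peak caller, and it ranks regions within 1 list only. The replicate lists held 26941 regions for replicate 1 and 22704 for replicate 2. The lists carry no read counts, so the depth is unknown.

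A minority of homeobox genes had an NHR-48 peak of the IDR list. An IDR summit lay in the window of 9 of the 78 (11.5%, exact 95% Clopper-Pearson interval 5.41 to 20.8), where 20.0% of all protein-coding genes had one. The interval, which covers counting error only, included the share of all genes. The 9 genes were ceh-5, ceh-38, mec-3, ceh-99, ceh-8, ceh-24, ceh-51, ceh-43 and ceh-39. In a narrower promoter window, 1000 bp before and 200 bp after each 5′ end in the annotation, 2 of the 78 genes had an IDR summit (2.56%, exact interval 0.312 to 8.96), against 9.0% of all genes. These were ceh-38 and ceh-99. The interval for the promoter window ended just below the share of all genes. A pooled summit lay in the window of 50 of 78 genes (64.1%, exact interval 52.4 to 74.7), against 67.2% of all genes. In the promoter window, 28 of 78 had a pooled summit (35.9%), against 39.5% of all genes. No test was made of these shares, and neighbouring windows can hold the same summit.

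Homeobox windows were not shorter than those of other genes. The median window was 8150 bp for the 78 genes and 7027 bp for all protein-coding genes. With overlaps counted once, the homeobox windows covered 672 kb and held 11 distinct IDR summits, 1.64 per 100 kb, against 3.35 per 100 kb in the windows of all genes. For pooled summits the values were 152 summits, 22.6 per 100 kb, and 30.6 per 100 kb. Of the pooled summits, 7.24% were IDR summits in homeobox windows and 11.0% in the windows of all genes.

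The strongest regions of each replicate gave counts close to that of the IDR list. With the 3361 strongest regions of replicate 1, 8 of 78 homeobox genes had a summit in the window (10.3%), against 19.7% of all genes. With those of replicate 2, 7 had one (8.97%), against 20.0% of all genes. All 8 and all 7 belonged to the 9 genes of the IDR list. That list is the top of the pooled one, called on both replicates together, so the overlap is not separate evidence. The exact intervals, 4.53 to 19.2 for replicate 1 and 3.68 to 17.6 for replicate 2, ended below the shares of all genes. They cover counting error only. With every region of the list counted, replicate 1 gave 50 genes (64.1%, all genes 68.8%) and replicate 2 gave 46 (59.0%, all genes 63.8%).

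The homeobox share lay below that of all genes at each depth of the pooled ranking that was counted. Each depth contains the regions of the smaller ones, so these are not separate observations. Among the 5000 strongest pooled regions, 11 homeobox genes had a summit in the window (14.1%), against 26.8% of all genes. Among the 10000 strongest there were 25 (32.1%), against 41.6%, and among the 20000 strongest 38 (48.7%), against 58.5%. The distance narrowed to 64.1% against 67.2% in the full list. The strongest pooled summit of a gene had a median signal of 44.0 over the 50 homeobox genes with one, and of 57.4 over all genes with one.

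**Figure D1:**
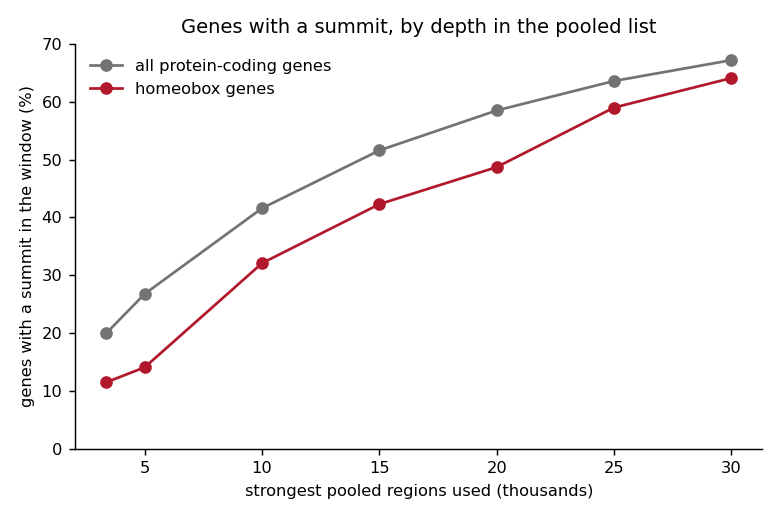
Share of genes with a summit in the gene body or 5 kb upstream (y axis, %) for an increasing number of the strongest pooled regions (x axis, in units of 1000), for 78 homeobox genes (red) and 19973 protein-coding genes (grey). The homeobox share lies below that of all genes at each of the 7 points, from 11.5% against 20.0% at the left to 64.1% against 67.2% at the right. Each point contains the regions of those to its left.

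The sequences given here are the 100 bp centred on IDR summits of homeobox windows, shown because they are the DNA that the tagged receptor's peaks mark at these genes. They are the plus strand of WBcel235 (ce11). Capitals mark a match, on either strand, to a searched 6-letter sequence. The searched set was GAGAGA, the E-box letters CACGTG, the GATA factor letters TGATAA, the nuclear receptor core site AGTGCA, the related letters AGGTCA, a variant of them, which is AGTTCA, and a homeodomain core site, which is TAATTA. The last contains TAAT, which was counted as well but is not marked. The first 5 windows come from the summits of mec-3 (chrIV:10463262-10463361), ceh-99 (chrII:12518980-12519079 and chrII:12519189-12519288), ceh-24 (chrV:13808591-13808690) and ceh-51 (chrV:18871131-18871230).
mec-3: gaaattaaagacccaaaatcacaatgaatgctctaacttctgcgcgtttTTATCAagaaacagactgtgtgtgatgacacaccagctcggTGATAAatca
ceh-99, stronger summit: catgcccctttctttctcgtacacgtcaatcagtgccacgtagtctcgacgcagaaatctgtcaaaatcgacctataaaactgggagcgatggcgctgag
ceh-99, weaker summit: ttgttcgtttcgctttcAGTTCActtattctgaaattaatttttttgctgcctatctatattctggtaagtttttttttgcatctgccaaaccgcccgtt
ceh-24: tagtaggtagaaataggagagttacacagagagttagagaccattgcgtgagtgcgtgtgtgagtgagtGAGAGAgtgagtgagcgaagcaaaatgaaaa
ceh-51: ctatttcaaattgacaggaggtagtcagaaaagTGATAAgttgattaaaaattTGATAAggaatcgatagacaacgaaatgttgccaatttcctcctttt

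The other pair of windows lie at tRNA genes, and here the capitals mark bases of the annotated tRNA gene. They come from the summits of ceh-43 (chrIII:4449493-4449592) and ceh-39 (chrX:1858765-1858864), and neither holds any of the searched 6-letter sequences.
ceh-43: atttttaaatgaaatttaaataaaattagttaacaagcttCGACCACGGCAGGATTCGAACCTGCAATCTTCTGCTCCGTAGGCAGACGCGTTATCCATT
ceh-39: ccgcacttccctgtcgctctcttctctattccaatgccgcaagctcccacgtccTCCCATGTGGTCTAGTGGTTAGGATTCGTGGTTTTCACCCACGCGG

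The windows of the other 4 summits, the pair of ceh-5 and those of ceh-38 and ceh-8, are not printed but were searched. Over the 11 summit windows, GAGAGA was present in 3 (both of ceh-5 and that of ceh-24) and TGATAA in 2 (mec-3 and ceh-51). AGGTCA was in 1 (ceh-8), AGTTCA in 1 (ceh-99) and TAATTA in 1 (ceh-8). CACGTG was in 0 of 11, and the letters AGTGCA were also in 0 of 11. Over the same 100 bp at all 3338 nuclear IDR summits, GAGAGA was in 21.9%, TGATAA in 20.3%, CACGTG in 7.91%, AGTGCA in 6.14%, AGTTCA in 5.27%, AGGTCA in 3.45% and TAATTA in 1.80%. The core TAAT was in 7 of the 11 windows and in 43.2% of all IDR windows. The larger set of 152 pooled summits in homeobox windows held TAAT in 61.8%, against 60.8% of all pooled summits, GAGAGA in 11.2% against 10.1%, and CACGTG in 1.32% against 2.86%. The share of G and C had a median of 40.0% over the 11 windows, from 30.0% at ceh-8 to 57.0% at ceh-39, and 44.0% over all IDR windows. A match describes the letters only.

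ceh-38 had the peak closest to a homeobox start site. It encodes a onecut protein, one of a family with a cut domain beside the homeodomain, and its summit lay 15 bp inside the 5′ UTR (II 6951303 to 6951778). The pooled signal was 303, at rank 563 of the pooled list, with 156 in replicate 1 (rank 707) and 147 in replicate 2 (rank 427). The window held 9 pooled summits, the highest number among the 78 genes together with the Otx gene ceh-37. ceh-38 was also the nearest protein-coding gene of its peak.

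mec-3, the LIM homeobox gene that specifies touch receptor neurons, had an intergenic summit 1445 bp upstream of its 5′ end (IV 10463074 to 10463549). Its signal was 269.8 at rank 678, with 189.9 in replicate 1 (rank 506) and 80.0 in replicate 2 (rank 1252). The nearest 5′ end was that of ugt-43, a UDP-glucuronosyltransferase gene, 1276 bp away and transcribed in the other direction. The peak thus lay in the window of both genes.

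ceh-99 had a pair of overlapping intergenic peaks 951 bp and 742 bp upstream (II 12518792 to 12519267 and 12519001 to 12519476), with signals of 195 and 155. Both overlapped the same region in each replicate, with a signal of 132 in replicate 1 (rank 936) and 81.8 in replicate 2 (rank 1195), so they are not separate observations. The gene stands among srh chemoreceptor genes, and the nearest 5′ end, that of srh-70, was 171 bp and 380 bp from the summits. The windows of srh-61, srh-69 and srh-70 held both.

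The strongest summit in any homeobox window belonged to ceh-5, 4899 bp upstream of its 5′ end and so just inside the 5 kb limit (I 9722217 to 9722373). Its signal was 317 at rank 524, with 182 in replicate 1 (rank 542) and 129.9 in replicate 2 (rank 534). It lay in an exon of the noncoding genes C16C2.7 and C16C2.8 and within the body of ocrl-1, and the nearest 5′ end was that of eat-16, at 446 bp. A second ceh-5 summit, 1735 bp upstream (I 9725196 to 9725671, signal 149.7), lay in a 3′ UTR within the bodies of eat-16 and ocrl-1, although ceh-5 had the nearest 5′ end.

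ceh-8, a relative of the vertebrate retinal Rx genes, had its peak at the far end of the gene (I 8245299 to 8245774), in its own 3′ UTR. The summit lay 5411 bp from the 5′ end of the gene, but 1430 bp from the nearest annotated 5′ end of a ceh-8 transcript. It was 574 bp from the 5′ end of the collagen gene col-63. The signal was 131, with 76.5 in replicate 1 (rank 2217) and 57.5 in replicate 2 (rank 2247).

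The NK-like genes ceh-24, ceh-51 and ceh-43 had weaker IDR peaks. ceh-24, known for vulval and pharyngeal muscle, had an intergenic summit 4590 bp upstream (V 13808403 to 13808878, signal 122), where the 5′ end of swan-1 was nearer, at 1404 bp. Its signal was 67.0 in replicate 1 (rank 2685) and 57.6 in replicate 2 (rank 2239). ceh-51, a regulator of the early mesoderm, had a summit 2952 bp upstream in an intron of emb-4 (V 18870943 to 18871418, signal 114). The replicates ranked this region differently, at 2054 in replicate 1 (signal 80.9) and 4692 in replicate 2 (signal 35.2).

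ceh-43, the Distal-less gene of the worm, had its summit 400 bp inside the gene (III 4449305 to 4449780, signal 105), within a tRNA gene in the gene body. Its signal was 59.1 in replicate 1 (rank 3190) and 43.9 in replicate 2 (rank 3341). ceh-39, a onecut gene that takes part in counting X chromosomes in sex determination, had a summit 2643 bp upstream and 4 bp from a tRNA gene (X 1858577 to 1859052, signal 102). Its signal was 49.5 in replicate 1 (rank 4112) and 53.1 in replicate 2 (rank 2506). Thus 2 of the 11 summits lay within 500 bp of a tRNA gene, as did 7.40% of all nuclear IDR summits.

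The 11 summits were of moderate strength. Their median signal was 149.7, against 155 for all nuclear IDR peaks, whose highest value was 2955. Regions among the top 3361 of both replicate lists lay at 9 of the 11, the exceptions being those of ceh-51 and ceh-39. The 9 are not all separate, since the ceh-99 summits overlap the same replicate regions. Counted by gene, 7 homeobox genes had such a peak (8.97%), against 16.3% of all genes. By the annotation at the summit, 5 were intergenic, 2 lay in exons of noncoding genes, 2 in 3′ UTRs, 1 in a 5′ UTR and 1 in an intron. Over all nuclear IDR summits the shares were 58.4%, 11.0%, 1.62%, 3.51% and 21.6%, in the same order. With 11 summits, nothing is read from these counts. None lay in a coding exon, where 3.92% of all nuclear IDR summits were found.

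**Figure D2:**
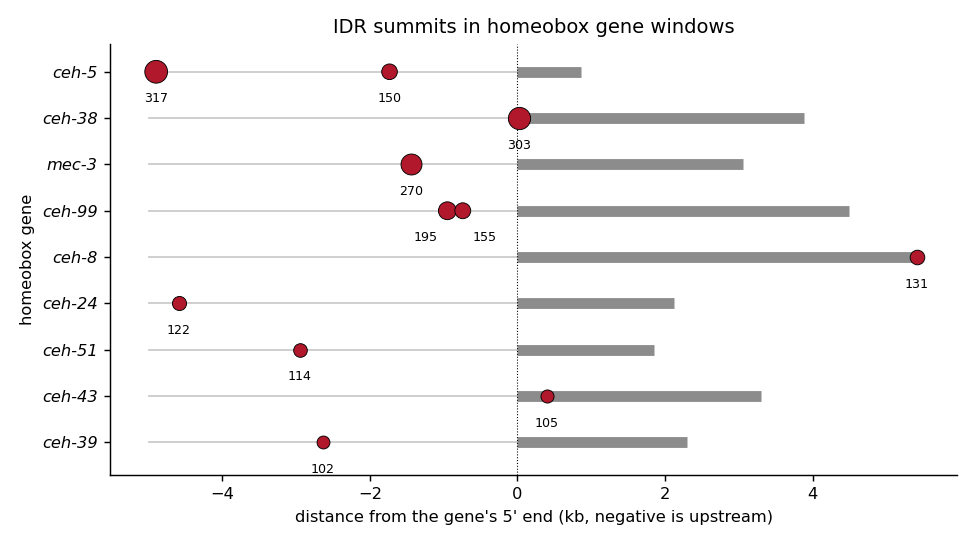
Position of the 11 IDR summits (red points, area in proportion to signal, with the signal value below each) relative to the annotated 5′ end of the homeobox gene (x axis, kb, negative is upstream). Grey bars are gene bodies and thin lines the 5 kb upstream, and the ceh-38 summit, 15 bp inside the gene, is the one nearest to a start.

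Peaks in homeobox windows were often shared with other genes. Of the 11 summits, 10 also lay in the window of another protein-coding gene, the exception being the tRNA summit in ceh-43, and over all pairs of a gene and an IDR summit in its window 74.6% were shared in this way. The nearest 5′ end belonged to the homeobox gene for 4 of the 11 (36.4%), those of ceh-38, ceh-43 and ceh-51 and the weaker one of ceh-5, and to the gene itself in 50.5% of all such pairs. An IDR summit lay in the 5 kb upstream of 6 homeobox genes (7.69%, exact interval 2.88 to 16.0, against 17.4% of all genes). In the body, 3 had an IDR summit (3.85%, exact interval 0.8 to 10.8, against 4.17%). The upstream interval ended below the 17.4% of all genes, and the body interval included the 4.17%. The difference between upstream and body was not tested.

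The 5 kb limit left out some IDR peaks just beyond it. Summits lay 5179 bp upstream of ceh-90 (signal 199), 5413 bp upstream of ceh-33 (219.7), 6079 bp upstream of ceh-21 (102) and 6479 bp upstream of ceh-76 (342). The last exceeds the strongest summit inside a homeobox window (317), although ceh-76 had no pooled summit in its own window. Within 10 kb, 18 homeobox genes had an IDR summit (23.1%), while all genes reached 28.8%.

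The remaining members had weak regions or none. A pooled summit without an IDR summit lay in 41 windows, with a strongest signal from 21.9 to 78.8 and a median of 37.8. The lowest IDR peak had 95.4. The strongest of these belonged to ceh-20 (78.8), which encodes the Pbx-type partner of Hox proteins. Next came the LIM gene ceh-14 (72.0), ceh-1 (67.3), ceh-63 (61.5), the onecut gene ceh-48 (60.5) and the posterior Hox gene nob-1 (58.1). Their summits lay 3600, 4677, 4928, 2228 and 671 bp upstream, in the same order, that of ceh-1 in an intron of another gene. The ceh-20 region, 843 bp upstream of the 5′ end, had a signal of 53.9 in replicate 1 (rank 3675) and 23.0 in replicate 2 (rank 9677). The strongest region was overlapped in both replicate lists for 23 of the 41 genes, in replicate 1 alone for 9, in replicate 2 alone for 5 and in neither for 4. Of all nuclear pooled regions, IDR peaks included, 56.9% were overlapped in both lists. The same count for the strongest regions of other genes is not given here, so nothing is read from it.

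No pooled summit lay in the window of 28 genes. Replicate 1 had a region in 5 of these windows and replicate 2 in 4. Such counts are not given here for all genes without a pooled summit, so nothing is read from them. The median window of the 28 was 7347 bp, compared with 8637 bp for the 41 genes with weak regions and 8052 bp for the 9 with an IDR summit.

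**Figure D3:**
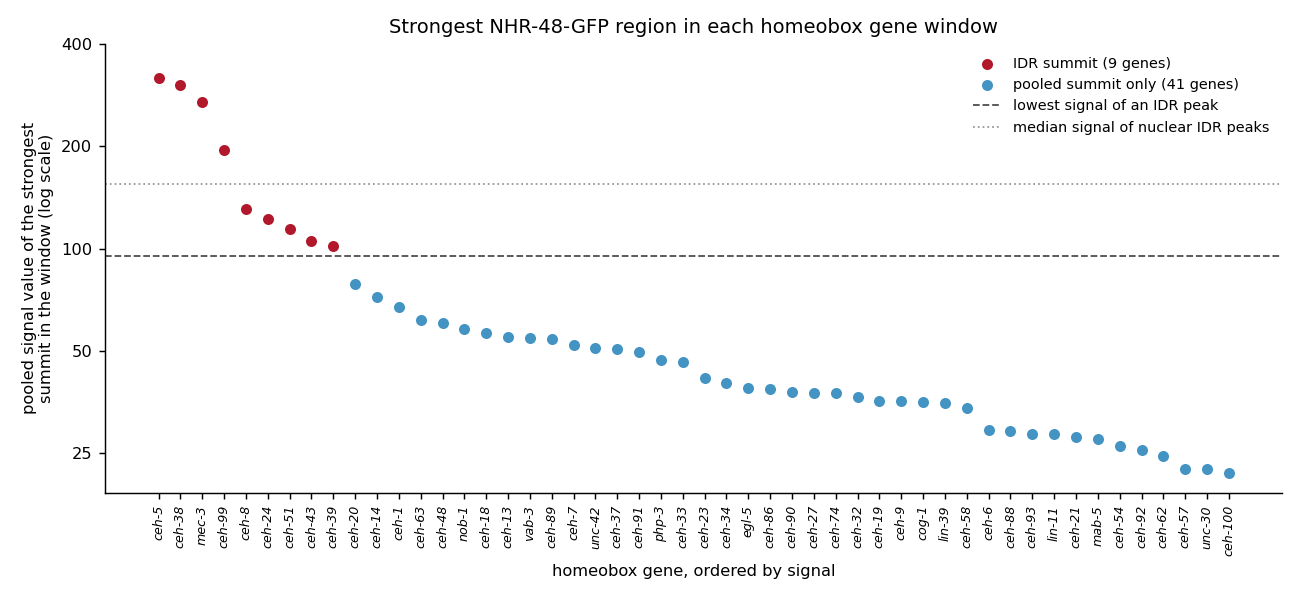
Pooled signal value of the strongest summit (y axis, log scale) in each of the 50 homeobox windows with a pooled summit, ordered by signal along the x axis. The 9 genes with an IDR summit (red) run from 317 at ceh-5 to 102 at ceh-39, above the dashed line at the lowest IDR signal (95.4), with a dotted line at the nuclear IDR median (155), and the other 41 (blue) run from 78.8 at ceh-20 to 21.9 at ceh-100.

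All 6 Hox genes had weak regions and 0 had an IDR summit, where 67.2% of all genes had a pooled summit and 20.0% an IDR summit. With 6 genes, nothing is read from these counts. The labial gene ceh-13, which acts in the anterior body, had its strongest region 531 bp upstream, with a pooled signal of 54.9, 25.2 in replicate 1 (rank 12228) and 25.5 in replicate 2 (rank 8078). The posterior genes nob-1 and php-3 lie side by side on III. nob-1 had a region 671 bp upstream (58.1 pooled, 30.2 in replicate 1 and 24.9 in replicate 2), and php-3 one in its coding sequence (47.1 pooled, 31.5 and 15.8). These are the 3 highest of the Hox values.

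The other Hox genes had lower values. egl-5, which patterns the tail, had a region 1881 bp upstream (39.0 pooled, 15.9 in replicate 1 and 17.8 in replicate 2). lin-39, required in the mid-body and the vulva, had an intronic region (35.2) found in replicate 1 alone (27.5). mab-5, which acts in the posterior body, had an intronic region at 27.6, with 23.3 in replicate 1 and 14.6 in replicate 2. The highest Hox signal, 58.1, stood below the 95.4 of the weakest IDR peak.

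The other classes also divided into weak and absent regions. Counted here and in the next paragraph are only the homeobox genes chosen by name at the start. Other homeobox genes, some of the same classes and most without an IDR summit, are described further below. Neither pal-1, a caudal gene of the posterior embryo, nor the even-skipped gene vab-7 had a pooled summit. Among the 4 LIM genes counted, mec-3 had the IDR peak described above. Of the others, ceh-14 (72.0) and lin-11 (28.4) had weak regions. No pooled summit lay at ttx-3, which specifies AIY interneurons. Among the 3 POU genes, ceh-18 (56.3) and ceh-6 (29.2) had weak regions, and unc-86, which acts with mec-3 in touch neurons, had none. The 3 sine oculis homeobox genes counted had weak regions, ceh-33 (46.5), ceh-34 (40.2, with its summit within the body of ceh-33) and ceh-32 (36.7). A further gene of that class, unc-39, was not among those counted and had an IDR summit (270.1). Of the PBC genes counted, ceh-20 had a weak region and ceh-40 had none. The PBC gene ceh-60, which was left out of the count, had an IDR summit (153).

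Of the 10 paired-like and Pax genes, ceh-8 had an IDR summit and 4 had weak regions, namely the Pax6 gene vab-3 (54.4), unc-42 (51.0), ceh-37 (50.7) and the GABA neuron gene unc-30 (22.5). The other 5, ceh-10, ceh-17, ceh-36, ceh-45 and the motor neuron gene unc-4, had no pooled summit. Of the 14 NK-like genes, 3 had an IDR summit, 4 had weak regions with ceh-1 the strongest (67.3), and 7 had none, among them the pharyngeal muscle gene ceh-22, the engrailed gene ceh-16 and the BarH pair ceh-30 and ceh-31. The 6 onecut genes held 2 IDR genes, ceh-38 and ceh-39, then ceh-48 (60.5) and ceh-21 (28.0) with weak regions and ceh-41 and ceh-49 with none. Of the 28 genes not placed in a class here, 2 had an IDR summit, 17 had weak regions and 9 had none. Those 9 include the neighbours ceh-81, ceh-82 and ceh-83, which lie between 1730403 and 1736533 on II. Over all genes, 20.0% had an IDR summit and 67.2% a pooled summit. The classes are small, and nothing is read from their counts.

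By chromosome, IDR summits fell in the windows of 2 of 9 homeobox genes on I, 2 of 15 on II, 1 of 16 on III, 1 of 6 on IV, 2 of 13 on V and 1 of 19 on X. X had the highest share among all protein-coding genes, 27.6%, with the others between 17.6% and 22.3%. Pooled summits lay at 5 of 9 homeobox genes on I (68.6% of all genes there), 9 of 15 on II (62.3%), 11 of 16 on III (77.0%), 5 of 6 on IV (69.3%), 8 of 13 on V (56.1%) and 12 of 19 on X (80.1%). The homeobox share was thus above that of all genes on IV and V and below it on the others.

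Overlap between replicates was counted for the regions at homeobox genes. Of the 152 pooled regions in homeobox windows, 72 (47.4%) were overlapped by a region in both replicate lists, against 56.9% of all nuclear pooled regions. Over these 72 the replicate signals had a Spearman rho of 0.641, and over all such regions 0.720. These are descriptions across regions, which share the 2 libraries and in part the same overlapping replicate region. The 11 IDR summits ranked between 506 and 4112 in replicate 1 and between 427 and 4692 in replicate 2.

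**Figure D4:**
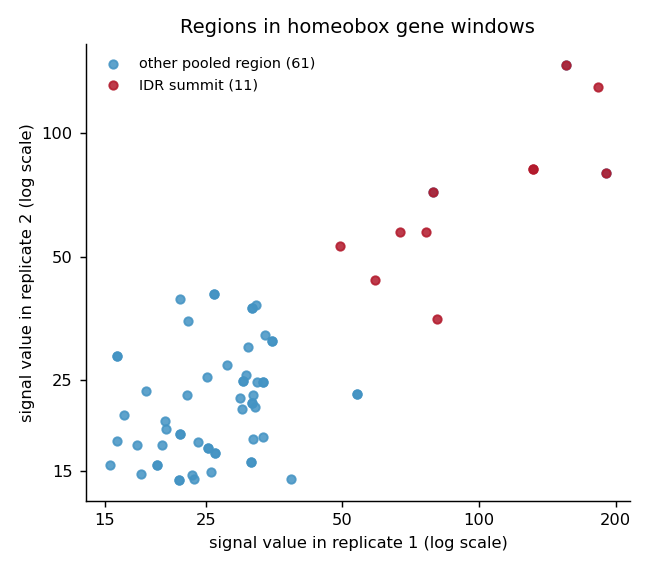
Signal value in replicate 1 (x axis) and replicate 2 (y axis), both on log scales, of the replicate regions that overlap the 72 pooled regions of homeobox windows found in both lists. The 11 IDR summits (red), which are the strongest by pooled signal, lie mostly towards the upper right of the 61 other regions (blue). Some blue points coincide with a red one because both pooled regions overlap the same replicate region. Other blue points exceed a red one on 1 axis, such as ceh-20 in replicate 1 (53.9, against 49.5 at ceh-39).

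Pooled summits at homeobox genes lay at about the same distances from the 5′ end as those of other genes. Of the 157 pairs of a homeobox gene and a pooled summit, 37.6% were 5 kb to 2 kb upstream (34.6% for all genes), 16.6% within 1 kb upstream (16.5%) and 10.2% in the first 1 kb of the gene (10.3%). The summits were in introns for 32.2% (31.7% of all nuclear pooled summits), intergenic for 36.2% (37.8%), in coding exons for 12.5% (18.9%) and in exons of noncoding genes for 8.55% (3.96%).

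Of 23 homeobox genes outside the 78, 6 had an IDR summit (26.1%), a share above the 20.0% of all genes and the 11.5% of the 78. The differences were not tested. These were unc-39, of the sine oculis class (270.1), ceh-60, a PBC gene known for regulating vitellogenin genes (153), the Iroquois gene irx-1 (141), duxl-1 (101), dsc-1, and unc-62, a Meis gene (99.7), with dsc-1 between the last pair. The rest of the 23 had no IDR summit. Among them, lim-6 (36.8), lim-4 (34.7), ttx-1 (27.9) and lim-7 (24.7) had weak regions, and alr-1, pax-3, mls-2 and vab-15 had no pooled summit. A pooled summit lay at 16 of the 23 (69.6%), against 67.2% of all genes. With the 23 added, 15 of 101 homeobox genes had an IDR summit (14.9%), and the exact interval of 8.56 to 23.3 included the 20.0% of all genes. Of 3 genes for homeodomain cofactors, ldb-1, which encodes the LIM-domain binding protein, had an IDR summit (343), unc-37, a Groucho corepressor gene, had a weak region (67.5) and eya-1 had no pooled summit.

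Other transcription factor families, set beside the homeobox genes under the same window rule, are given against the 20.0% of all genes with an IDR summit and the 67.2% with a pooled summit. IDR summits lay in the windows of 0 of 22 T-box genes, 4 of 15 forkhead genes (26.7%), 70 of 274 nuclear hormone receptor genes (25.5%) and 21 of 28 bZIP genes (75.0%). The median windows were 6769 bp for T-box, 7739 bp for forkhead, 7320 bp for nuclear hormone receptor and 8119 bp for bZIP genes. A pooled summit lay at 27.3% of T-box, 73.3% of forkhead, 67.2% of nuclear hormone receptor and 82.1% of bZIP genes. The differences between these families and the homeobox genes were not tested.

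**Figure D5:**
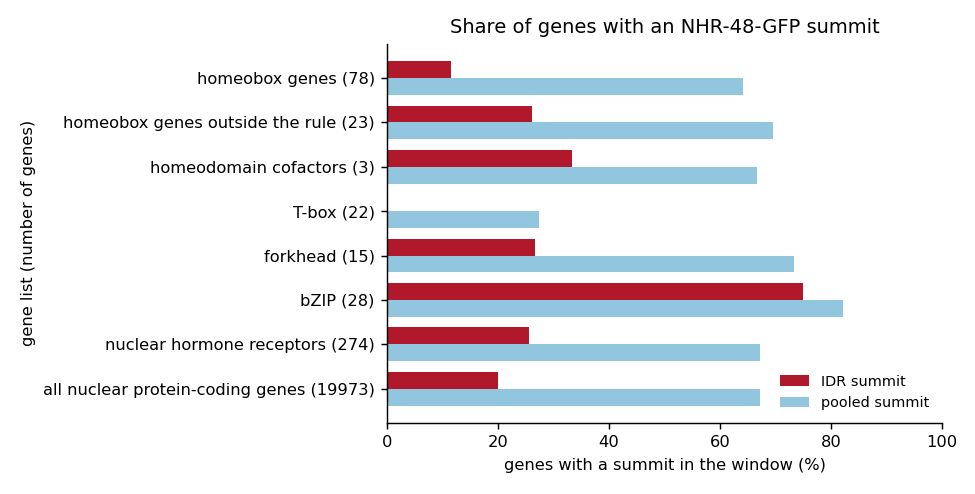
Share of genes (x axis, %) with an IDR summit (red) or a pooled summit (light blue) in the gene body or 5 kb upstream, for 7 lists and all 19973 protein-coding genes, with the number of genes in brackets. Homeobox genes (11.5% IDR) lie between T-box genes at 0 and the other lists, of which bZIP genes reach 75.0%.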

How the data were processed

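ChIP-seq regions of NHR-48-GFP in whole L4 larvae were analysed in 2 biological replicates of 1 group. The authors deposited region lists in narrowPeak format. Per the deposited file listings, each replicate list and the pooled list hold peaks with background, called against 1 control file, and the optimal IDR list was derived from them. The sources used here do not give the peak caller, the aligner or the IDR threshold. The score used is the authors' signal value per region, and the other deposited column used is the summit offset. The ce10 lists were not used. No region and no gene on the nuclear chromosomes ran past a chromosome end of WBcel235.

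Gene models came from Ensembl release 115, and the genome sequence from RefSeq WBcel235. A summit is the start of a region plus its offset. Signals of a pooled region in a replicate are those of the strongest region overlapping it by at least 1 bp. The exact 95% intervals of shares (Clopper-Pearson) take genes as independent and cover no error but that of counting. With 1 condition and 2 replicates no test was made, and counts are set beside all protein-coding genes. Members, gene lists and classes were chosen with earlier results of these data known. The text names all members with an IDR summit, the 6 strongest without one, the Hox genes, and class members as the 9 class lists give them. Assignment of summits to genes was tested on simulated data. Alternatives changed the window, the gene assignment, the signal threshold, the overlap, the replicate and neighbouring tRNA or coding genes. Scripts ran in Python 3.11.15 with scipy 1.17.1, numpy 2.4.6 and pandas 2.3.3, and figures were drawn with matplotlib 3.10.9.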

Additional observations from a re-analysis of the deposited data

How the results depend on the processing

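The homeobox share with an IDR summit was below that of all genes under each of the 11 alternatives where both shares could be compared. These alternatives recount largely the same peaks and genes, so they are not separate checks. In the gene body alone the shares were close (3.85% against 4.17%). The count of 9 genes followed the window. It was 4 with 1 kb upstream (5.13%, all genes 11.1%), 18 with 10 kb upstream (23.1%, all genes 28.8%) and 3 in the gene body alone. It was 4 where a summit went to the nearest 5′ end only (5.13%, all genes 10.7%). With peaks at or above the median signal of nuclear IDR peaks it was also 4 (5.13%, all genes 11.1%). Under the other alternatives it was 6 to 10. The 11 summits became 7 with 2 kb upstream, 5 with 1 kb, 22 with 10 kb, 3 in the gene body, 4 by nearest 5′ end and 5 at or above that median, where the weaker ceh-99 summit and the median both round to 155. Without either replicate the count of genes ran from 7 to 8 and that of summits from 8 to 11. The promoter count of 2 became 5 with 2000 bp upstream to 500 bp downstream (6.41%, all genes 12.3%). With 500 bp to 100 bp it was 1 (1.28%, all genes 6.67%). The pooled count of 50 became 32 in the gene body (41.0%, all genes 38.3%) and 33 at or above the median pooled signal (42.3%, all genes 51.6%). It was 25 among the 10000 strongest regions (32.1%, all genes 41.6%), a setting chosen after seeing the data. The pooled share was below that of all genes in 7 of 11 alternatives. No paired analysis was possible because there is 1 group. Depth is unknown, so a missing summit does not show that a gene was unbound.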
